A study of Mus musculus with 38 samples.

Results

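The control animals of a mouse skin study of SRSF2, a splicing factor of the SR protein family, were sequenced in 2 forms: as cells sorted for a reporter and as whole back skin. The 3 sorted controls were set beside the 3 whole-skin controls of the same knockout arm, so 6 of the 38 samples of the series are described here. The libraries were chosen by their labels and joined by gene identifier, and 17029 of the 49585 genes in the tables had a mean of at least 1 CPM (counts per 1000000) in either group and are described. The comparison asks what the reporter gate kept of the skin and what it left behind.

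The sorted controls are labelled as reporter-positive cells of back skin, genotype ctr, treated with 4-hydroxy tamoxifen on the skin every other day for 10 days. Their Cre and reporter alleles are not given in the labels. The whole-skin controls carried the SRSF2 KO allele label, were negative for Krt14CreER, a tamoxifen-inducible Cre driven by the Krt14 promoter, and had the same topical treatment. Whole-skin replicates 1 and 2 were treated for 12 days and replicate 3 for 10 days, and their tdTomato reporter is labelled heterozygous, homozygous and wild type in that order. Each library is labelled as its own mouse, and no age, sex or strain is given. RNA was extracted with Trizol and both forms went into the same stranded total RNA kit. The skin was frozen at collection, whereas the labels do not describe how the cells were released and sorted.

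Back skin is a layered organ. Basal keratinocytes, which make the keratin pair Krt5 and Krt14, sit on the basement membrane, divide, and pass upward through spinous cells that make Krt1 and Krt10 to granular and cornified cells that build the barrier. Hair follicles and sebaceous glands are continuous with this epithelium, while fibroblasts, vessels, fat, immune cells, nerves and the thin sheet of panniculus muscle lie below it. In mouse skin a Krt14-driven Cre marks basal cells and, with time, what descends from them.

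Levels are CPM of each library's own sum without Gm26917, Gm42418, Rn7sk and the mitochondrial genes, which took 12.4 to 14.1% of the sorted and 5.91 to 8.05% of the whole-skin libraries. A log2 difference is the mean of log2(CPM + 0.5) in the sorted cells minus that in whole skin, and folds are on that scale, which understates the difference of low genes. A gene is called set apart where the fold was at least 4 and the 3 sorted values did not overlap the 3 whole-skin values. No test was made, because the tables were normalised separately and the preparations differed. Cell content, handling and table of origin vary together between the groups, as do the Xist and Y-linked levels given below. Cre status may vary with them, since that of the sorted controls is not labelled. These cannot be told apart in any difference below. In bulk RNA, fewer cells of a type and less RNA per cell cannot be told apart either.

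The sorted libraries held 77358335, 92761588 and 77914401 reads. The whole-skin libraries held 30163950, 28927660 and 28515245 counts in units of their smallest value, with 23009 to 23480 genes at exactly that unit, 0.0361 to 0.0373 CPM, where the sorted libraries had 23247 to 24539 genes at 0. Sorted libraries resembled each other (Spearman 0.990 to 0.995 across the genes described), as did skin libraries (0.970 to 0.978), and sorted with skin gave 0.748 to 0.790, values that share depth and gene length and carry no test. The median over genes of the SD among 3 libraries was 0.15 log2 units in the sorted cells and 0.19 in whole skin. Xist, the X-inactivation RNA of female cells, was 4428, 3758 and 4205 CPM in the sorted libraries and 3.39, 7.95 and 52 CPM in whole skin. Y-linked Ddx3y was at 0 in the 3 sorted libraries and at 2.96, 1.91 and 0.634 CPM in whole skin, with Uty and Eif2s3y alike. The sex of the mice is not given, and the part of sex in the results was not tested.

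Over all genes described the median log2 difference was -0.28, with the 25th and 75th percentiles at -1.32 and 0.47. The sorted cells were set apart as higher for 417 genes, 2.45% of those described, and as lower for 2757 genes, 16.2%. With each library scaled instead to its summed epithelial and desmosome genes, the same rule gave 132 higher and 4466 lower, and the median of all genes moved to -1.18. Among others named below, Dsc3, Cldn1, Cldn4, Lypd3, Skint3, Gata6, Defb6, Sox9 and Foxc1 were under 4-fold with that scaling. Without overlap but at any fold, every sorted value was above for 29.2% of genes and below for 47.5%. Counts of list members are to be read against these shares.

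The keratin pair of the basal layer ranked among the most abundant genes of the sorted libraries. Krt5 (chr15:101707070-101712898, minus strand, GRCm38) measured 9312, 10622 and 12126 CPM in the sorted cells and 3569, 2399 and 2489 CPM in whole skin. It ranked 3, 3 and 2 among all genes described in the sorted libraries and 16, 24 and 19 in whole skin. Krt14 (chr11:100203162-100207548, minus strand) measured 6893, 7157 and 8006 CPM in the sorted cells and 2347, 2116 and 2328 CPM in whole skin, a difference of 1.70. Neither pair of groups overlapped, yet both folds, 3.83 and 3.24, were short of 4. Per kilobase of exon, the means were 4864 against 1283 CPM per kb for Krt5 and 4182 against 1288 CPM per kb for Krt14.

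Krt15 (chr11:100131758-100135928, minus strand), a keratin of basal cells and of the follicle bulge, behaved otherwise. It measured 2022, 2219 and 2114 CPM in the sorted cells and 2046, 1651 and 1132 CPM in whole skin, so the highest skin library lay inside the sorted range. Its ranks were 25, 24 and 29 in the sorted libraries and 31, 36 and 48 in whole skin. Krt15 was abundant in both forms of sample.

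**Figure D1:**
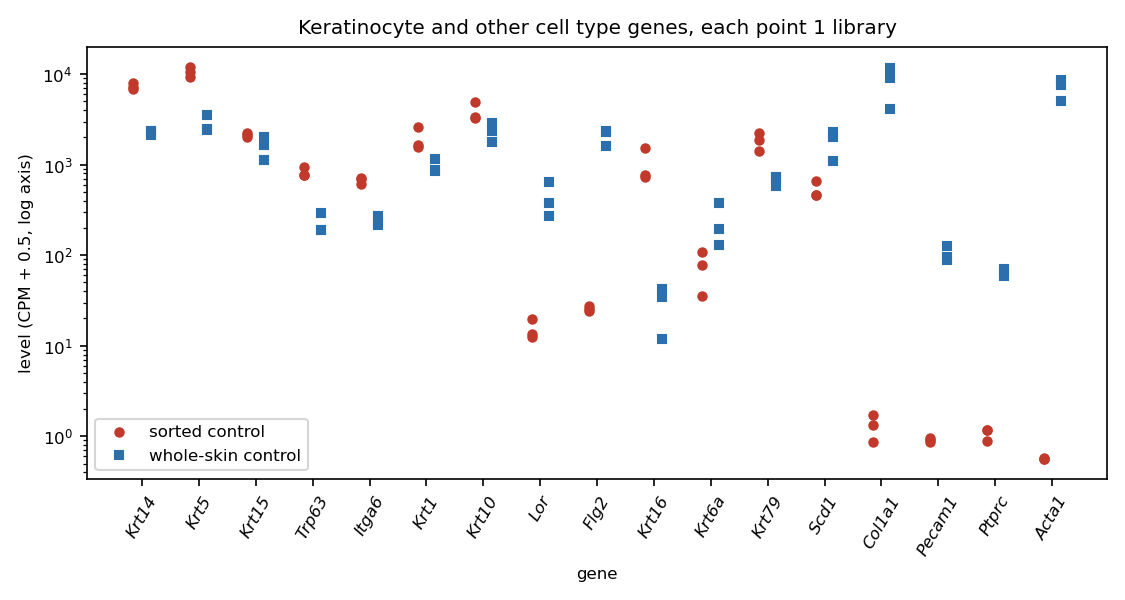
Level of 17 keratinocyte and other cell type genes in each control library (vertical log axis, CPM + 0.5; red circles, 3 sorted libraries; blue squares, 3 whole-skin libraries). Krt14 and Krt5 lie above whole skin, Krt15 overlaps it, and Col1a1, Pecam1, Ptprc and Acta1, all above 50 CPM in skin, are under 2 CPM in the sorted cells.

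Of 21 basal keratinocyte genes, all described, 15 were above whole skin in every sorted library, none was set apart in either direction, and the median difference was 1.14. Trp63, the master transcription factor of stratified epithelium, measured 769.6, 941 and 767 CPM in the sorted cells and 291, 190.4 and 191 CPM in whole skin. Itga6, the alpha chain of the hemidesmosomal integrin, measured 693, 719 and 618 CPM against 273, 233 and 214 CPM. Sfn, the keratinocyte 14-3-3 protein, had the widest difference of the list at 1.95, and Cd151, a tetraspanin that binds integrins, the lowest at -0.48. The list summed to 31306, 35216 and 36031 CPM in the sorted libraries and 15509, 13350 and 11957 CPM in whole skin, a ratio of 2.51. With libraries scaled to the epithelial genes the list median was 0.20.

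Epithelial adhesion genes followed the same course. Of 23, 22 were described, 18 lay above whole skin without overlap, and 3 were set apart as higher: Dsc3, Cldn1 and Cldn4. Dsc3, a desmosomal cadherin of the lower layers, measured 2335, 2361 and 2751 CPM in the sorted cells and 618, 424 and 368 CPM in whole skin, 5.39-fold. Cldn1 (4.18-fold) and Cldn4 (4.11-fold), tight junction claudins, sat at the edge of the threshold, and both dropped under 4-fold without sorted replicate 3, at log2 differences of 1.98 and 1.93. Cdh1, the epithelial cadherin, stood just outside at 3.95-fold. Ppl and Evpl, plakins of the upper layers, were below whole skin in every sorted library at -0.31 and -0.22.

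Spinous genes were mixed. Krt1 measured 1561, 1633 and 2583 CPM in the sorted cells and 1159.98, 866 and 852 CPM in whole skin, and Krt10 3374, 3277 and 4905 CPM against 2857, 2361 and 1776 CPM. The first suprabasal keratins therefore lay above whole skin in every sorted library, by 1.97-fold and 1.65-fold. Krt77, a suprabasal keratin, was on the other side at 1767, 1416 and 1614 CPM against 4183, 4094 and 2811 CPM. Of the 15 spinous genes Lypd3, a surface protein of the Ly6 family, and Skint3 were set apart as higher and Sbsn, suprabasin, as lower at 175, 167 and 189 CPM against 983, 896 and 649 CPM. Skint3 was no longer set apart without whole-skin replicate 2 (1.89), and Sbsn was not with median-ratio scaling (-1.93) or the 10-day skin library alone (-1.87). The list median was 0.24, and it turned to -0.70 when libraries were scaled to the epithelial genes.

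The granular and cornified layer was almost wholly on the low side. Of 36 genes 33 were described, 23 were set apart as lower, 30 lay below whole skin in every sorted library and none was set apart as higher, with a median of -3.78. Flg2, a filaggrin-like barrier protein, measured 25.1, 27.1 and 23.6 CPM in the sorted cells and 2365, 2307 and 1594 CPM in whole skin, 79.9-fold lower. Lor, loricrin, the main protein of the cornified envelope, measured 13, 12 and 19.1 CPM against 648, 372 and 269 CPM. Sorted replicate 1 held more Flg, filaggrin, than the others, at 60.1, 7.95 and 10.5 CPM, and all 3 remained under the whole-skin values of 363, 200.01 and 405 CPM.

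The late cornified envelope genes, a cluster on chromosome 3 expressed in the outermost living cells, stood together on the low side. All 12 Lce1 genes of the list were set apart as lower, from -3.16 for Lce1g to -5.30 for Lce1m, which measured 6.08, 7.56 and 9.56 CPM against 393, 359 and 229 CPM. Their sequences resemble each other, so reads could have been shared among them in counting. Lce3a, Lce3b and Lce3c had means under 1 CPM in both groups and were not described. Casp14 and Abca12, a caspase and a lipid transporter of the granular layer, and Sprr1a, an early envelope precursor, overlapped whole skin, so the low levels did not extend to the whole list. The list summed to 1489, 1230 and 1360 CPM in the sorted libraries and 8067, 6908 and 6565 CPM in whole skin.

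**Figure D2:**
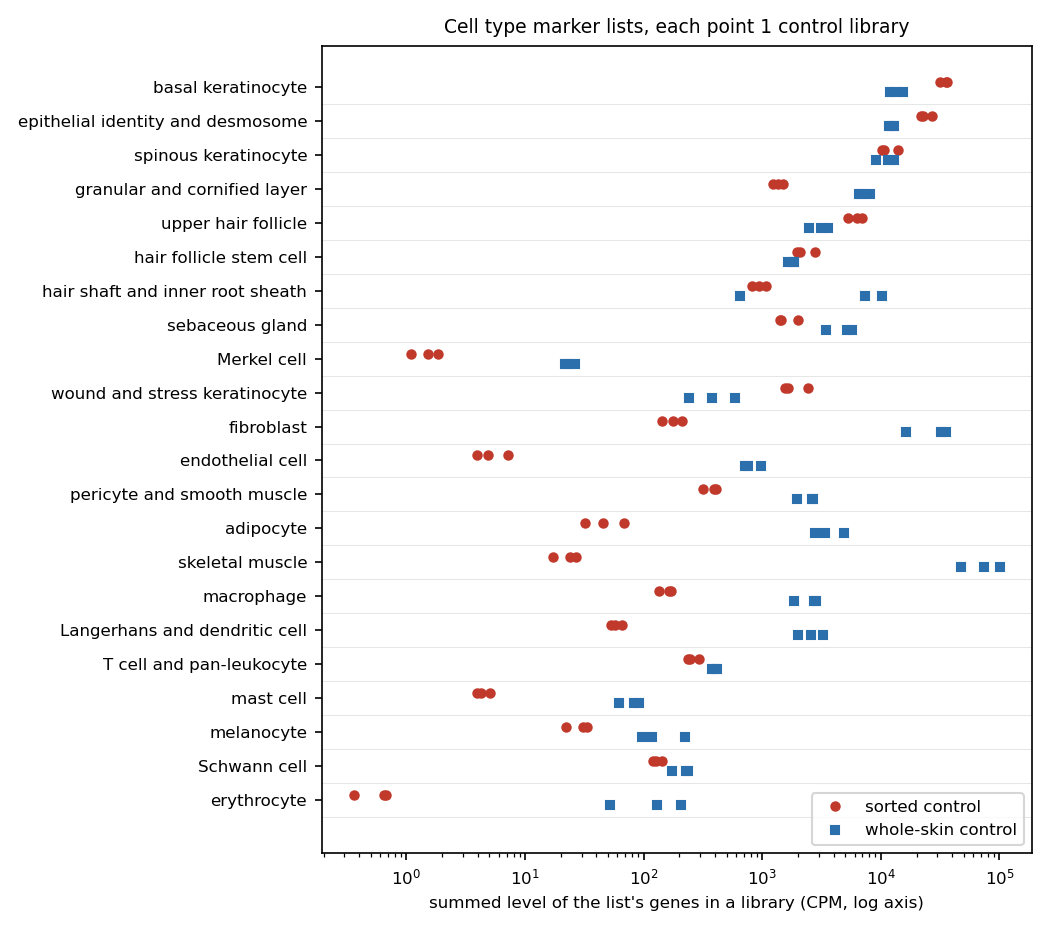
Summed level of each cell type list per library (horizontal log axis, CPM; red circles sorted, blue squares whole skin; 1 row per list). The sums include every member, Gata3 in the hair shaft list among them. Basal, epithelial and wound lists lie to the right in the sorted cells, and fibroblast, endothelial, muscle and erythrocyte lists lie 1 or more decades to the left.

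Genes of the upper follicle were well represented. Of 11, Plet1, Defb6 and Gata6 were set apart as higher, 8 were above whole skin in every library, and the median was 0.87, which became -0.07 under scaling to the epithelial genes. Plet1, a surface protein of the follicle infundibulum and junctional zone, measured 432, 452 and 399 CPM in the sorted cells and 35.5, 43.9 and 61.9 CPM in whole skin, 9.22-fold. Defb6, a beta-defensin, measured 378, 272 and 394 CPM against 38.1, 54.3 and 56.7 CPM, and Gata6, a factor of the sebaceous duct, 66.1, 52 and 47.9 CPM against 8.58, 13.8 and 9.13 CPM. Krt79, a keratin of the infundibulum (2.73-fold), Sostdc1 (3.76-fold), Lrig1 (1.83-fold), Krt17 (1.71-fold) and Cst6 (1.43-fold) were above without being set apart. Teddm3 overlapped, and Klk10 and Atp6v1c2 were below at -1.93 and -0.81.

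Hair follicle stem cell genes divided. Of 19, Sox9 and Foxc1, transcription factors of the bulge, were set apart as higher and Cd34 as lower, and the median was -0.11, which was 0.19 under median-ratio scaling, 0.02 among genes of at least 10 CPM and 0.06 without sorted replicate 3. Sox9 measured 386, 309 and 302 CPM in the sorted cells and 96.4, 75.1 and 76.4 CPM in whole skin, at the edge of 4-fold. It was under 4-fold without sorted replicate 1 (1.89), whole-skin replicate 2 (1.94) or whole-skin replicate 3 (1.95), and Foxc1 was under it without sorted replicate 1 (1.97). Cd34, a bulge marker that vessels and dermal cells also carry, measured 37.3, 14.5 and 9.82 CPM against 205, 253 and 275 CPM. Lgr5, a receptor of cycling follicle stem cells, measured 42.2, 10.5 and 12 CPM against 64.4, 37.5 and 45.1 CPM and overlapped only through sorted replicate 1. Tbx1 and Lhx2, bulge factors, were also highest in that library, at 36.7, 9.56 and 7.75 CPM and 51.1, 21.3 and 18.2 CPM in the sorted cells.

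The hair-producing compartment was low in the sorted cells and uneven in whole skin. Of 42 genes of the hair shaft and inner root sheath, 40 were described, 31 were set apart as lower and 1, Gata3, as higher. Krt71, a keratin of the inner root sheath, measured 12.5, 0.0997 and 0.0733 CPM in the sorted cells and 1909, 18.3 and 1056 CPM in whole skin. Tchh, trichohyalin of the inner root sheath, measured 14.9, 4.76 and 5.54 CPM against 3238, 81.5 and 2395 CPM. Whole-skin replicate 2 was far below the other 2 skin libraries in both, and in Krt27 (663, 8.54 and 411 CPM) and Krt25 (692, 8.4 and 421 CPM). The sorted values of these 4 genes were still under that library, though Krt25 overlapped under median-ratio scaling. Krt73, Krt32, Foxn1 and Dlx4 overlapped whole skin, Krt73 through sorted replicate 1 at 4.92 CPM beside 2.06 CPM in whole-skin replicate 2. The whole list summed to 825, 941 and 1083 CPM in the sorted cells and 10191, 644 and 7378 CPM in whole skin. Every sorted sum was thus above whole-skin replicate 2. Without Gata3, left out after the values were seen, the sums were 137, 96.9 and 70.1 CPM against 9969, 495 and 7253 CPM, which did not overlap. Of 54 keratin-associated protein genes found by symbol, which build the hair fibre matrix, 48 were set apart as lower and 39 had no read in any sorted library.

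Keratins as a family showed the same division. Of 46 keratin genes described, 1 was set apart as higher, Krt16, and 27 as lower, most of them hair and root sheath keratins. The family summed to 30712, 30714 and 37200 CPM in the sorted libraries and 25160, 16399 and 18918 CPM in whole skin.

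Sebaceous genes were lower on the whole. Of 19 genes, which serve lipid synthesis in the gland, 10 were set apart as lower and none as higher, with a median of -2.11. Scd3, a stearoyl-CoA desaturase confined to the gland, measured 1.22, 0.81 and 1.5 CPM in the sorted cells and 47.6, 118 and 175 CPM in whole skin. Awat1, a wax ester synthase, measured 0.12, 0.125 and 0.44 CPM against 10.3, 24.2 and 31 CPM, and Elovl3, a fatty acid elongase, 6.26, 2.55 and 1.35 CPM against 18.8, 49 and 51.8 CPM. Genes that other skin cells share, Mgst1, Acsbg1 and Plin2, overlapped whole skin.

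Merkel cells, the touch receptors of the basal layer that descend from Krt14-expressing cells, had their genes near 0 in the sorted libraries. Of 10 genes 6 were described, of which Isl1, Syp and Piezo2 were set apart as lower, Isl1 (-1.36) and Syp (-1.93) not with a pseudocount of 2. Piezo2, the touch channel, measured 0.331, 0.0498 and 0.205 CPM in the sorted cells and 6.78, 7.25 and 9.13 CPM in whole skin, and Krt8 and Krt18 were under 1 CPM in every sorted library. Atoh1, Sox2, Krt20 and Rab3c, the other Merkel genes, were under 1 CPM in all 6 libraries. The list summed to 1.10 to 1.85 CPM in the sorted cells and 21.6 to 26.6 CPM in whole skin.

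Genes of wounded and stressed keratinocytes were higher in part. Of 20 genes 18 were described, and 6 were set apart as higher: Epgn, Krt16, Stfa1, Hbegf, Areg and Stfa3. Areg was under 4-fold with the 10-day skin library alone (1.79), a pseudocount of 2 (1.73) or epithelial scaling (1.52), Stfa1 with a pseudocount of 2 (1.92), and Hbegf with epithelial scaling (1.96). Krt16, a keratin of hyperproliferative epidermis, measured 764, 729 and 1515 CPM in the sorted cells and 34.2, 11.2 and 42 CPM in whole skin, 36.6-fold. Krt6a, a keratin of the same wound programme and of the companion layer, was on the other side at 107, 77.2 and 35.3 CPM against 196, 130.5 and 380.05 CPM. S100a8 and S100a9, alarmins of inflamed epidermis, were under 4 CPM in every library and overlapped. The list median was 0.99.

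The immediate early genes, transcription factors and feedback proteins that cells switch on within minutes of a stimulus, gave the widest contrast on the high side. Promoters of 4 of them are shown, chosen because their start regions hold elements through which such genes are known to respond. The elements are the cyclic AMP response element (CRE, TGACGTCA, with its core TGACGT) and the CArG box, bound by serum response factor. Most genes of the list that have a window hold neither, as given below. The sequences are RefSeq promoter windows on GRCm38.p6, 250 bases before to 50 after the start, written 5' to 3' on the gene's strand, with matches in capitals: Fos, the CRE core 66 bases before the start (chr12:85473640-85473939, plus strand); Dusp1, a CRE core at 191 and a full CRE at 143 (chr17:26508423-26508722, minus strand); Btg2, a full CRE at 166 (chr1:134079106-134079405, minus strand); Zfp36, a CArG box at 58 (chr7:28379179-28379478, minus strand).
Fos: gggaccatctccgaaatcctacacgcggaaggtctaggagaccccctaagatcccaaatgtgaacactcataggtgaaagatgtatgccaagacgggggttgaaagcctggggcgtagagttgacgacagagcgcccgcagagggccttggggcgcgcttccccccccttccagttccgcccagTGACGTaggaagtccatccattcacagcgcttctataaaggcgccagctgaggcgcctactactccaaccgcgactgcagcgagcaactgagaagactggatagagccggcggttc
Dusp1: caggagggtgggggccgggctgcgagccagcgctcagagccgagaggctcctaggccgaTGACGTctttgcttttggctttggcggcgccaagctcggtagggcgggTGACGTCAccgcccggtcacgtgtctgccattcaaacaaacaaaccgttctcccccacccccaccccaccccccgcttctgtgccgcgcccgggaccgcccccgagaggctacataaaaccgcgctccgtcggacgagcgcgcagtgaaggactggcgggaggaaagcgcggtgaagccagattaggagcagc
Btg2: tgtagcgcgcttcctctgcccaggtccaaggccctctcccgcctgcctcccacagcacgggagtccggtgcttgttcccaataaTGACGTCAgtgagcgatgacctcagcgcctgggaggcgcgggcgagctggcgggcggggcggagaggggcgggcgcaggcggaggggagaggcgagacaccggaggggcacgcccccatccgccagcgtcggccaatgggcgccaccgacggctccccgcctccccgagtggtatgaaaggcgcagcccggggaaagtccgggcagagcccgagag
Zfp36: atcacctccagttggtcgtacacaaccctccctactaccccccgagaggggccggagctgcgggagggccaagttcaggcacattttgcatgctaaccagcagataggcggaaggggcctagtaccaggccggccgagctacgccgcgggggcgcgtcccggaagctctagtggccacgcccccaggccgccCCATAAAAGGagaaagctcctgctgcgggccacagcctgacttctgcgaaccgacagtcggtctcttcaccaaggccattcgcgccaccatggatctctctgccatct

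Of the 30 immediate early and heat shock genes, 22 matched the RefSeq table, with 28 windows. On either strand, 7.14% of these windows held the full CRE, 25% its core, which every full CRE contains, 17.9% a CArG box and none the AP-1 element TGANTCA. In all 32851 windows of the table the shares were 1.79%, 7.51%, 1.63% and 7.81%, and in the 14649 windows of the genes described 2.76%, 10.4%, 1.30% and 5.89%. In the 283 windows of all genes set apart as higher, which include windows of this list, they were 7.07%, 20.1%, 3.53% and 8.13%, so the CRE was about as frequent there. Of the 7 windows with the core 3 are starts of Egr2, as are 4 of the 5 with a CArG box, and these overlap. The windows with a full CRE are those of Dusp1 and Btg2 shown above. Within the list, matches lay only in windows of Atf3, Btg2, Dusp1, Egr2, Fos and Zfp36. The windows of every other list gene found there, Jun, Junb, Fosb and Nr4a1 among them, held none of these elements. A match describes letters in this window and does not show binding.

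Of the 30 genes, all described, 25 were set apart as higher, none as lower, and 28 lay above whole skin in every sorted library. With epithelial scaling 21 were set apart as higher. The background is 2.45% higher and 29.2% above without overlap. Fos (chr12:85473890-85477273, plus strand), a subunit of the AP-1 factor, measured 2426, 2297 and 2455 CPM in the sorted cells and 15.1, 11.4 and 18.2 CPM in whole skin, 158-fold. It ranked 19, 23 and 22 in the sorted libraries and 9178, 10188 and 8781 in whole skin, so a gene of the middle of the list in skin stood among the most abundant transcripts of the sorted cells. The whole list summed to 25536, 26012 and 28138 CPM in the sorted libraries and 2230, 2282 and 2563 CPM in whole skin, an 11.3-fold ratio.

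The AP-1 subunits and partners spanned a wide range. Fosb measured 2471, 2419 and 2822 CPM in the sorted cells and 9.16, 3.65 and 12.9 CPM in whole skin. Fosl1, a late-induced member of the family, measured 384, 495 and 629 CPM against 1.26, 0.626 and 1.19 CPM, the highest log2 difference of the list at 8.36. Jun measured 1907, 2007 and 2407 CPM against 97.5, 94.1 and 104 CPM. Junb (15-fold), Jund (8.53-fold) and Atf3 (100.1-fold), a stress-induced partner, were set apart too, and none of these groups overlapped.

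Other induced transcription factors were alike. Egr1 measured 1753, 1979.7 and 1795 CPM in the sorted cells and 83.9, 59.7 and 62.3 CPM in whole skin. Nr4a1, an orphan nuclear receptor, measured 918, 1256 and 1230.3 CPM against 22.2, 24 and 17.6 CPM, and Myc 379, 408 and 537 CPM against 34.8, 27.7 and 28.7 CPM. Egr2, Nr4a2, Klf4, Klf6 and Ier2 were set apart at 4.73-, 8.82-, 4.55-, 4.65- and 16.4-fold. Egr3 lay above whole skin at 3.09-fold without being set apart.

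Genes whose products limit the response were set apart as well. Dusp1, a phosphatase of the MAP kinases, measured 1095, 1125 and 1363 CPM in the sorted cells and 41.1, 40.2 and 39.9 CPM in whole skin. Zfp36, which binds and destabilises induced mRNAs, measured 1855, 1974 and 2218 CPM against 40.5, 47.1 and 52.3 CPM. Btg2, an antiproliferative protein, measured 1284, 1327 and 1643 CPM against 70.8, 71.3 and 80.8 CPM. Socs3 (14.3-fold), Ier3 (9.68-fold), Gadd45b (7.92-fold) and Cyr61 (15.5-fold), a matricellular target of growth signals, were also set apart.

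Heat shock genes differed to unequal degrees. Hspa1a, inducible HSP70, measured 612, 406 and 412 CPM in the sorted cells and 41.2, 41.4 and 35.9 CPM in whole skin. Hspa1b, its near-identical neighbour with which reads may be shared, and Dnajb1, its co-chaperone, were set apart at 8.73- and 5.81-fold. Hspa8, the constitutive form, was above at 2.01-fold without being set apart. Hsph1 and Hspb1 overlapped whole skin at 0.85 and 0.14, and Ctgf, a growth factor-like target, was above by only 1.32-fold.

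**Figure D3:**
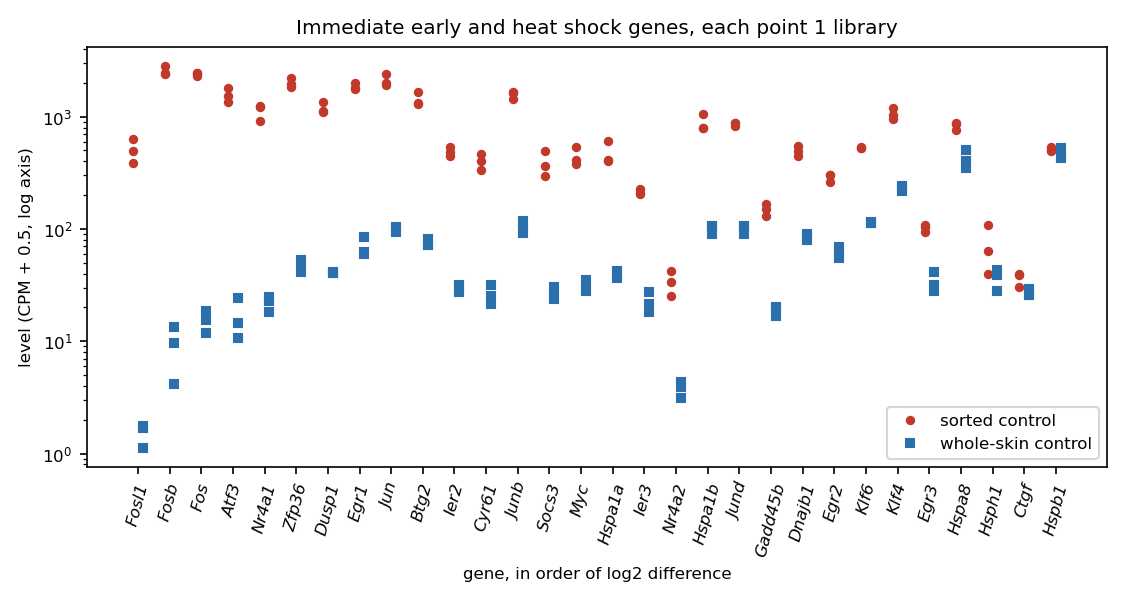
Level of the 30 immediate early and heat shock genes in each library (vertical log axis, CPM + 0.5; red circles sorted, blue squares whole skin), ordered by log2 difference. The sorted values of 28 genes lie above all 3 skin values, from Fosl1 at 8.36 to Ctgf at 0.40, and Hsph1 and Hspb1 overlap.

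Fibroblast genes were close to 0 in the sorted cells. Of 25 fibroblast genes 23 were set apart as lower, and all 25 lay below whole skin without overlap, with a median of -6.23, or -8.93 as a linear ratio with genes at 0 placed at their bound of 3 reads. Col1a1, the main collagen of the dermis, measured 1.22, 0.822 and 0.366 CPM in the sorted cells and 4140.1, 11638 and 9179 CPM in whole skin. Col3a1 measured 0.271, 0.374 and 0.176 CPM against 3992, 8313 and 7366 CPM, and Dcn, decorin, 0.723, 0.311 and 0.542 CPM against 281, 520.4 and 536 CPM. Whole-skin replicate 1 was the lowest of the skin libraries in all 3. Vim, the intermediate filament of mesenchymal cells, measured 4.52, 3.02 and 2.67 CPM against 354, 511 and 599.9 CPM. Thy1 and Sfrp2 were below without being set apart. The list summed to 142 to 211 CPM in the sorted libraries and 16283 to 35703 CPM in whole skin.

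Some matrix genes kept a residue. Col1a2 measured 11.5, 4.19 and 2.57 CPM in the sorted cells, Col5a2 11.3, 5.44 and 2.68 CPM and Sparc, a matrix-binding glycoprotein, 50.9, 38.8 and 33.7 CPM, against 579, 1206 and 1479 CPM of Sparc in whole skin. Sorted replicate 1 was the highest in each of these 3 genes.

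Endothelial genes were close to 0 as well. All 18 endothelial genes were set apart as lower, with a median of -5.36 (-7.49 with bounds), and the list summed to 3.93 to 7.23 CPM in the sorted libraries and 722 to 972 CPM in whole skin. Pecam1, the endothelial adhesion molecule CD31, measured 0.406, 0.361 and 0.454 CPM in the sorted cells and 88.3, 127 and 94.9 CPM in whole skin. Cdh5, VE-cadherin, had no read in any sorted library and 66.8, 85.3 and 72.7 CPM in whole skin, at least 1777-fold lower against a floor of 3 reads per library. Cldn5, Emcn, Sox17 and Mmrn1 also had no read in the sorted libraries, at least 472-, 149-, 184- and 136-fold lower. The defining markers of endothelium are therefore at or near 0 in the sorted cells.

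Pericyte and smooth muscle genes were low with a pair of exceptions. Of 12, 10 were set apart as lower, among them Myh11, smooth muscle myosin, at 0.0753, 0.0748 and 0.044 CPM in the sorted cells and 183, 262 and 175 CPM in whole skin. Acta2 measured 2.03, 2.47 and 2.68 CPM against 112, 172 and 152 CPM, and Pdgfrb, Rgs5, Abcc9, Tagln, Mylk, Cnn1, Kcnj8 and Des were under 2 CPM in every sorted library. Notch3 measured 302, 307 and 241 CPM against 320.3, 272 and 237 CPM and overlapped, and Cspg4, the NG2 proteoglycan, 101, 80.7 and 71.4 CPM against 183, 169 and 150.2 CPM. Keratinocytes are known to express both of the exceptions.

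Fat and muscle of the deep skin set the lower end of the whole comparison. Of 15 adipocyte genes 14 were set apart as lower, with a median of -7.08 (-10.23 with bounds), and Adrb3, a beta-adrenergic receptor, overlapped at 13, 10.2 and 7.09 CPM against 11.5, 14 and 12.5 CPM. Adipoq, adiponectin, measured 0.0452, 0 and 0 CPM in the sorted cells and 29, 187 and 99.5 CPM in whole skin. Whole-skin replicate 1 was the lowest and replicate 2 the highest of the skin libraries, as they were for Lep, leptin (27.7, 229 and 94.4 CPM), and Cfd, adipsin (109, 694 and 372 CPM). Car3, a carbonic anhydrase of fat and muscle, measured 0.0301, 0 and 0 CPM against 1934, 1922 and 1366 CPM.

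All 20 skeletal muscle genes were set apart as lower, with a median of -10.01 (-13.21 with bounds). Ttn, titin, measured 1.19, 1.02 and 0.792 CPM in the sorted cells and 58216, 38524 and 26288 CPM in whole skin, the lowest log2 difference of all genes named at -14.67. Acta1, skeletal actin, measured 0.0602, 0.0748 and 0.0586 CPM against 8728, 7517 and 5051 CPM, or 0.042 against 4622 CPM per kb. Tnnt3, a fast troponin, had no read in the sorted libraries and was at least 29308-fold lower. The list summed to 26.9, 24.1 and 17.3 CPM in the sorted libraries and 100481, 74054 and 46990 CPM in whole skin, so the skin libraries also differed over 2-fold among themselves. Ryr1 at 14.5, 12.8 and 8.9 CPM and Eno3 at 4.73, 4.57 and 3.96 CPM were the highest of the list in the sorted cells.

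Macrophage genes were abundant in whole skin and near 0 in the sorted libraries. Of 18 macrophage genes 17 were set apart as lower, with a median of -6.87 (-11.38 with bounds). Mrc1, the mannose receptor, measured 0, 0.0125 and 0.0147 CPM in the sorted cells and 249.9, 363 and 377 CPM in whole skin. Lyz2, lysozyme, measured 0.0151, 0 and 0.0147 CPM against 227, 342 and 332 CPM. Both were within a few reads of 0 in every sorted library.

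Langerhans cells live within the epidermis, and their genes were lower as well. All 13 dendritic genes described were set apart as lower, with a median of -4.93. Cd207, langerin, measured 2.14, 2.84 and 1.08 CPM in the sorted cells and 12.8, 14.8 and 9.8 CPM in whole skin. Cd74, the invariant chain of MHC class II, measured 19, 16.8 and 20.1 CPM against 716, 1145 and 920.4 CPM, and H2-Aa 6.96, 6.09 and 5.95 CPM against 327, 496 and 415 CPM. These antigen presentation genes kept a few CPM to 20 CPM in each sorted library, where Clec10a, a lectin of dermal dendritic cells, had 0.0151, 0 and 0.044 CPM.

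Lymphocyte and mast cell genes were lower in the main. Of 15 T cell and pan-leukocyte genes 13 were described and 9 set apart as lower. Ptprc, the leukocyte antigen CD45, measured 0.662, 0.66 and 0.396 CPM in the sorted cells and 59, 70.4 and 65.5 CPM in whole skin. Cd3e measured 0.497, 0.361 and 0.352 CPM against 7.72, 10.3 and 5.59 CPM and Trdc, of the gamma-delta T cells that populate mouse epidermis, 0.196, 0.212 and 0.249 CPM against 4.76, 7.55 and 4.7 CPM. Rora, a nuclear receptor that keratinocytes also express, overlapped at 0.19. Of 9 mast cell genes 6 were described and all 6 set apart as lower, with Mcpt4, a connective tissue mast cell protease, at 0.0151, 0 and 0 CPM against 13.7, 21.4 and 23.6 CPM and Tpsb2 at least 325-fold lower.

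Genes of neural crest derivatives had smaller median log2 differences than the vessel, immune and mesenchymal lists. Their levels in whole skin were low, where the added 0.5 CPM understates a difference. Of 10 melanocyte genes described 5 were set apart as lower, with a median of -2.37 (-6.61 with bounds). With a pseudocount of 0.1, 9 were set apart as lower, at a median of -4.28. Pmel, a melanosome protein, measured 0.482, 0.299 and 0.249 CPM in the sorted cells and 11.7, 19 and 60.1 CPM in whole skin, and Dct 0.632, 0.15 and 0.191 CPM against 19, 32.8 and 52.7 CPM. Whole-skin replicate 3 was the highest in pigment genes. Mitf, which has isoforms outside melanocytes, kept 31.7, 29.6 and 21 CPM in the sorted cells. Of 11 Schwann cell genes 7 were set apart as lower, with a median of -2.44 (-4.47 with bounds). Mbp, whose locus also yields transcripts outside glia, overlapped at 106, 133 and 119.6 CPM against 116, 116 and 87 CPM.

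Erythrocyte genes were near 0 in the sorted cells. Hba-a1, alpha-globin, measured 0.12, 0.0125 and 0.0733 CPM in the sorted cells and 24.8, 103 and 65.2 CPM in whole skin, and Hbb-bs, beta-globin, no read against 21.2, 84.3 and 50.9 CPM, at least 1237-fold lower. All 4 genes described were set apart as lower. The genes for globins have near-identical copies among which reads can be shared.

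**Figure D4:**
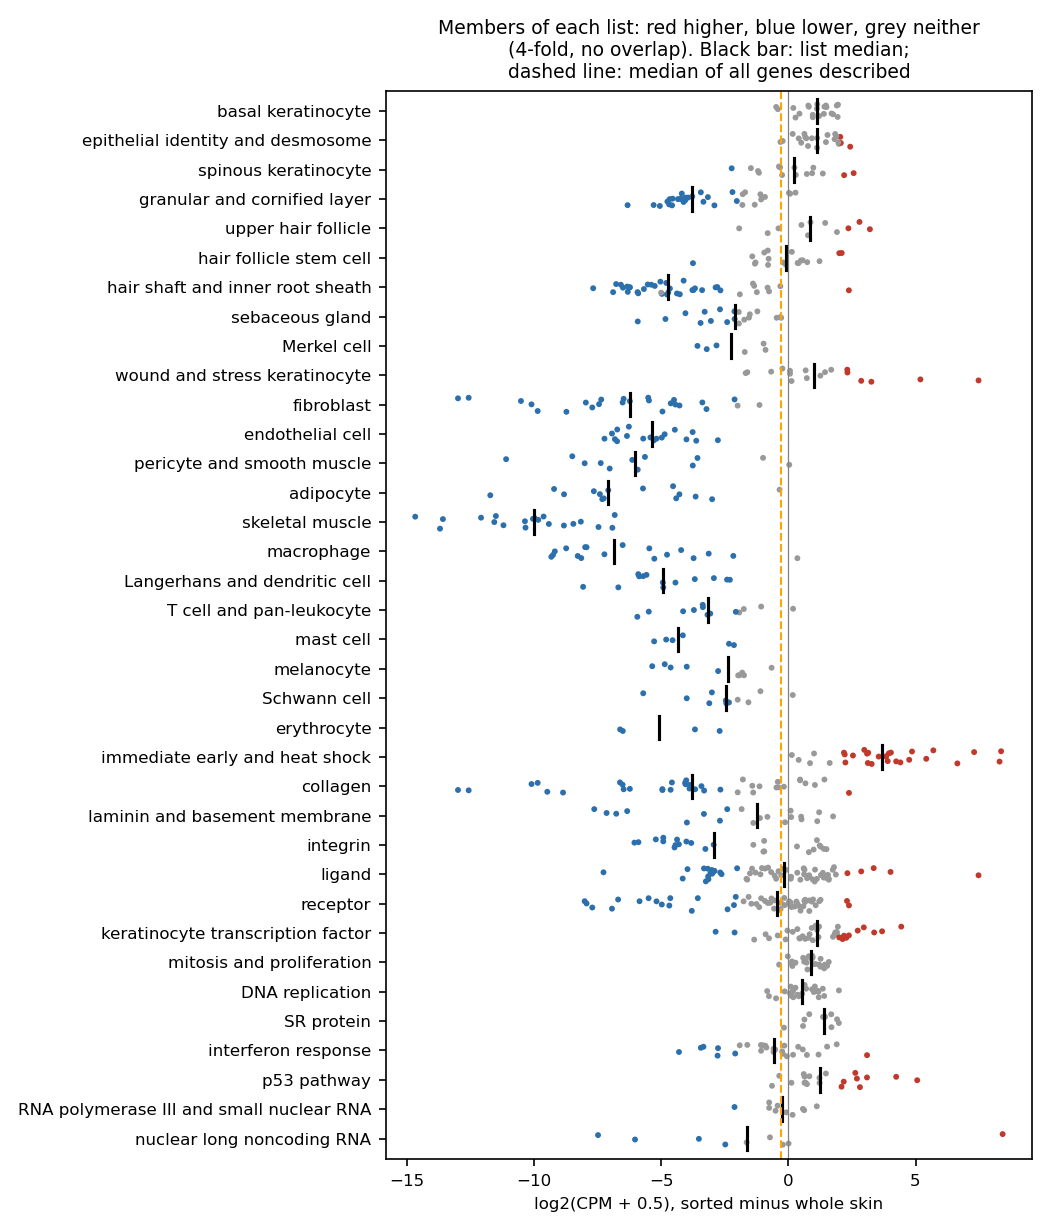
Log2 difference of every described member of 36 gene lists (horizontal axis, sorted minus whole skin, log2(CPM + 0.5); red set apart as higher, blue as lower, grey neither; black bars list medians; grey line 0; dashed line the median of all genes, -0.28). Immediate early genes reach 8.36 on the right and muscle genes -14.67 on the left, while most basal and SR protein genes lie between 0 and 2.

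Collagens of the dermis and of the epidermal junction stood on different sides. Of 42 collagen genes 38 were described, 23 were set apart as lower and 1 as higher. Col17a1, the transmembrane collagen of hemidesmosomes made by basal cells, measured 3488, 4213 and 3693 CPM in the sorted cells and 1841, 1452 and 1063 CPM in whole skin. Col7a1, the anchoring fibril collagen, overlapped at 263, 269.7 and 211 CPM against 464, 338 and 226 CPM. Col4a5 and Col4a6, basement membrane chains, stood at 0.46, with overlap, and 0.67, whereas Col4a1 and Col4a2, the chains common to vessels, were lower by 31- and 24.7-fold. Col2a1, the collagen of cartilage, was the gene set apart as higher at 5.16, 4.83 and 2.78 CPM against 0.288, 0.368 and 0.522 CPM. No collagen was set apart as higher with a pseudocount of 2, a filter of 10 CPM or epithelial scaling.

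Laminins were divided too. Lamb3 and Lama3, chains of the laminin of the epidermal basement membrane, lay above whole skin at 2.31- and 2.2-fold. Lama2, a muscle laminin, measured 0.346, 0.237 and 0.352 CPM in the sorted cells and 129, 180.2 and 176 CPM in whole skin. Nid1 and Nid2, nidogens that join laminin to collagen, were lower by 109- and 80.8-fold. Of the 20 genes of the basement membrane, 8 were set apart as lower and none as higher.

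Integrins, the receptors for these proteins, were divided as well. Of 25 described none was set apart as higher and 13 as lower, and Itga6, Itgb4, Itga2, Itgb8, Itga3, Itgav and Itgb1 lay above whole skin in every library. The fold over skin was 2.63 for Itgb4 and 1.75 for Itgb1, the shared beta chain. The leukocyte chains Itgb2 and Itgal were lower by 59.5- and 19.8-fold, and Itga9 measured 0.0602, 0.0125 and 0 CPM against 30.3, 35.3 and 37.6 CPM. Although more chains were lower, the family summed to 2517 to 2870 CPM in the sorted cells and 1641 to 1716 CPM in whole skin.

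Secreted ligands were partitioned between the forms. Of 61 described, 5 were set apart as higher, Epgn, Nrg1, Hbegf and Areg among them, and 16 as lower. The median was -0.19, and it was 0.09 under median-ratio scaling. Epgn, Hbegf and Areg are ligands of the epidermal growth factor receptor and Nrg1 a ligand of Erbb3 and Erbb4. Epgn, epigen, measured 437, 555 and 609.9 CPM in the sorted cells and 3.86, 1.03 and 3.43 CPM in whole skin. Hbegf measured 61.1, 70.3 and 63.3 CPM against 9.01, 5.82 and 11.5 CPM, and Areg, whose call ended under the settings given above, 11.1, 10.2 and 9.5 CPM against 1.73, 0.921 and 2.61 CPM. Other ligands of the epidermal growth factor receptor were on the other side: Btc at 3.16, 3.4 and 3.64 CPM against 35.6, 21.7 and 16.9 CPM and Egf at 2.05, 1.97 and 2.33 CPM against 33.5, 25.7 and 13.6 CPM, while Tgfa was below at -0.68 without being set apart.

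Mesenchymal ligands were close to 0. Igf1 measured 0.0301, 0 and 0.044 CPM in the sorted cells and 57.3, 93.4 and 97 CPM in whole skin, and Fgf7, keratinocyte growth factor, 0, 0.0872 and 0.0293 CPM against 3.64, 3.87 and 3.88 CPM. Fgf10 and Hgf, further growth factors that mesenchyme supplies to epithelium, were under 0.05 CPM in every sorted library. Several Wnt ligands, which signal within the epithelium, were above whole skin: Wnt3 at 3.47-fold, Wnt10a at 3.00-fold, Wnt4 at 2.79-fold and Wnt7b at 2.07-fold, none of them set apart.

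Receptors were likewise divided. Of 56 described 2 were set apart as higher, Epha2 and Notch1, and 16 as lower, while none was higher with epithelial scaling. Notch1 (chr2:26457903-26516663, minus strand), the receptor that commits keratinocytes to differentiate, measured 2597, 2919 and 3979 CPM in the sorted cells and 665, 567 and 661 CPM in whole skin. It stood among the 12 highest means of protein-coding genes in the sorted cells, and its exons span 14.2 kb, so that per kilobase it was at 222 against 44.3 CPM per kb. Epha2, an ephrin receptor, measured 449, 459 and 439.96 CPM against 88.4, 78 and 91.4 CPM. Egfr (1.77-fold), Erbb3 (1.58-fold), Met (2.4-fold) and Fgfr2 (1.55-fold) lay above whole skin in every sorted library. The receptors Pdgfra, Kdr and Csf1r, of mesenchyme, vessels and macrophages, were set apart as lower at -7.71, -6.94 and -7.93. Ednrb was set apart as lower too, at -6.69.

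Transcription factors of the keratinocyte were higher as a rule. Of 41, 10 were set apart as higher, 2 as lower, and 30 lay above whole skin in every sorted library, with a median of 1.13. Scaled to the epithelial genes, 4 were higher and 3 lower, with a median of 0.25. Hes1, a direct target of Notch signalling, measured 531, 676 and 857 CPM in the sorted cells and 28.7, 29.1 and 34.4 CPM in whole skin, 21.7-fold. Klf5 measured 455, 474 and 524 CPM against 52.5, 34.3 and 28.4 CPM, and Cebpb 415, 384 and 275 CPM against 27.7, 33.3 and 40.8 CPM. Zfp750 (7.82-fold), Gata3 (5.21-fold) and Tfap2a (4.39-fold), factors of epidermal differentiation and identity, were among the others. Dlx3, of the hair matrix and upper epidermis, and Prdm1, of sebaceous and granular cells, were set apart as lower at -2.86 and -2.11.

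Cell cycle genes were in part above whole skin, and none was set apart. Of 25 mitosis genes 13 were above in every sorted library, and the median was 0.89, which turned to -0.01 under scaling to the epithelial genes. Mki67, the proliferation antigen, measured 285, 229 and 248 CPM in the sorted cells and 109, 113 and 274 CPM in whole skin and overlapped through whole-skin replicate 3. Top2a, topoisomerase II of dividing cells, measured 181, 139 and 154 CPM against 49.2, 36.6 and 77.8 CPM. That skin library, the one treated for 10 days, was the highest of the 3 in the summed list, at 844 CPM beside 448 and 394 CPM, and the sorted libraries summed to 934 to 1160 CPM. Of 27 DNA replication genes 12 were above and 3 below without overlap, and their median of 0.54 turned to -0.34 under that scaling. Against the skin library treated for 10 days alone, the medians were 0.26 for mitosis and 0.21 for DNA replication genes. Pcna, the replication clamp, stood just under the threshold at 99.2, 92.1 and 109.7 CPM against 22.1, 21.8 and 31.8 CPM.

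SR proteins, the splicing family to which the studied gene belongs, were above whole skin. Of 11 genes 10 were described and 9 lay above in every sorted library, with a median of 1.40 and none set apart. Srsf2 (chr11:116849901-116853094, minus strand), whose loss the study examined, measured 349, 336 and 353 CPM in these sorted controls and 104, 106 and 112 CPM in the whole-skin controls, with ranks of 442 to 470 against 1867 to 1900. Control Srsf2 was even within each form and 3.22-fold higher in the sorted cells. With epithelial scaling the list median was 0.47. In the second pair of control sets, described below, Srsf2 stood at a log2 difference of 0.51 and the list median at 0.54. Srsf10, Srsf3 and Srsf11 were above by 3.96-, 3.77- and 3.24-fold, Srsf7 and Srsf6 by 2.72- and 2.57-fold, and Srsf5, Srsf4 and Srsf1 by under 2-fold. Srsf9 overlapped whole skin at -0.17, and Srsf12 was under 1 CPM in all 6 libraries.

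Targets of p53, the damage-responsive transcription factor, were higher in part. Of 20 genes 8 were set apart as higher and 16 lay above whole skin in every library, with a median of 1.22. Scaled to the epithelial genes, 3 were set apart, the median was 0.30, and Cdkn1a (1.88) and Bbc3 (1.79) were under 4-fold. Pmaip1, the apoptotic protein Noxa, measured 75.8, 81.8 and 136 CPM in the sorted cells and 2.85, 1.55 and 2.83 CPM in whole skin. Cdkn1a, the cell cycle inhibitor p21, measured 717, 739 and 785 CPM against 119, 83.1 and 119 CPM, and Mdm2, the p53 ubiquitin ligase, 317, 248 and 311 CPM against 51.8, 42.3 and 45.5 CPM. Bbc3, Tnfrsf10b, Plk2, Sesn2 and Btg2, which the immediate early list also holds, completed the 8. Bax (1.52-fold), Zmat3 (1.77-fold) and Phlda3 (1.66-fold), further targets, were above by less than 2-fold, and Trp53 itself by 2.34-fold.

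Interferon response genes had no common side. Of 28, 1 was set apart as higher, Cxcl10, at 16, 6.94 and 11.2 CPM in the sorted cells and 0.397, 0.847 and 1.42 CPM in whole skin, and 6 as lower. Oas2, an RNA sensor, measured 1.57, 0.773 and 0.85 CPM against 20.6, 38.8 and 32.2 CPM, and Ifit3 0.256, 0.0872 and 0.322 CPM against 4.87, 7.51 and 10.4 CPM. B2m, the light chain of MHC class I, lay above at 3.73-fold, whereas the heavy chain genes H2-K1 and H2-D1, near-identical in places, were at 0.18 and -1.91.

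Of 9 nuclear long noncoding RNA genes described, Xist, given above, was set apart as higher and 4 as lower, with a median of -1.64. Malat1, a nuclear speckle RNA, measured 14599.6, 13282 and 13384 CPM in the sorted cells and 18674, 14688 and 14828 CPM in whole skin. Neat1, the scaffold of paraspeckles, measured 1127, 679 and 703 CPM against 2895, 2472 and 2277 CPM and was below in every sorted library. H19 and Meg3, imprinted RNAs of mesenchyme and muscle, were set apart as lower at -7.48 and -6.03. Of 10 RNA polymerase III and small nuclear RNA genes described, Snora73b was set apart as lower, and it was under 4-fold without sorted replicate 3 (-1.94). Rpph1, the RNA of RNase P, overlapped at 0.17. The 83 genes for cytosolic ribosomal proteins had a median of 0.98 and summed to 36516 to 38878 CPM in the sorted libraries and 16869 to 22527 CPM in whole skin.

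The highest log2 differences among abundant genes belonged largely to groups already described. Of the 12 highest, Fosl1, Fosb, Epgn, Fos, Atf3, Arc, Nr4a3 and Nr4a1 are growth factor or immediate early genes and Xist is given above, with Arc at 179, 189.7 and 198 CPM in the sorted cells and 4.15, 1.91 and 3.58 CPM in whole skin. Ifi202b, an interferon-inducible gene that differs between inbred strains, measured 745, 624 and 627 CPM against 1.95, 0.884 and 1.9 CPM. Nnt, a mitochondrial gene with a known deletion in a common strain, measured 13.5, 16.2 and 10.7 CPM against 59.3, 82.2 and 80.4 CPM. Trim12a, another strain-variable gene, was not set apart, at 17.4, 15.5 and 12.4 CPM against 9.09, 10.8 and 7.27 CPM. Its log2 difference was 0.71, and -0.61 with overlap in the second pair of control sets described below. Nnt and Trim12a were chosen after the values were seen, and the strain of each group is not in the labels. Rps2-ps10, a ribosomal pseudogene, had the widest difference at 334, 368 and 325 CPM against 0.0721, 0.11 and 0.559 CPM, beside 469, 508 and 548 CPM and 661, 719 and 776 CPM of its parent Rps2. Reads of such copies are assigned with uncertainty.

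The 12 lowest were muscle, collagen and fat genes: Ttn, Myh1, Acta1, Col3a1, Col1a1, Atp2a1, Car3, Ckm, Myh4, Tnnt3, Des and Xirp2. Xirp2, a protein of muscle attachment, had no read in the sorted libraries and 1239, 874 and 1118 CPM in whole skin, at least 25533-fold lower. Atp2a1, the calcium pump of fast muscle, measured 0.0903, 0.15 and 0.0293 CPM against 4044, 3057 and 1337 CPM.

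A second pair of control sets, with no library in common with the first, gave values to set beside these. It joins 3 sorted controls labelled with tamoxifen injection and the carcinogen and promoter pair DMBA/TPA at 20 weeks to 5 whole-skin controls of the P95H arm, Cre negative with the SRSF2 MUT allele label, at 12 days of topical 4-hydroxy tamoxifen. These skin libraries came from another total RNA kit, and treatment, time and route differ between its sorted and skin libraries too. Of 17760 genes described there, 2.15% were set apart as higher and 15.4% as lower, and no overlap at any fold was seen above for 20.2% and below for 53.9%. Of the 417 genes higher in the first pair, 174 were higher in the second, 41.7% of the first set and 52.7% of the second among genes described in the first, and none was lower. Of the 2757 lower genes 2174 were lower again, 78.9% of the first set and 81.5% of the second, and 4 were higher. Across 17029 genes the log2 differences had a Pearson correlation of 0.872 and a Spearman correlation of 0.778, given as a description.

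The lists lowest in the first pair were low in the second. Median log2 differences in the first and second pair were -10.01 and -9.35 for muscle, -6.23 and -4.93 for fibroblast, -5.36 and -4.97 for endothelial and -3.78 and -3.75 for cornified genes. The basal list stood at 1.14 and 1.0, with 3 of its genes set apart as higher in the second pair, among them Krt14 at 2.34 and Sfn at 2.68, and the immediate early list at 3.69 and 3.02, with 24 of its 30 genes set apart as higher in the second pair, Fos at 4.87 and Fosb at 6.65.

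Other genes stood apart only in the first pair, a difference between pairs that was not tested. Hes1 was at 4.44 in the first pair and 0.54 in the second, Notch1 at 2.31 and 0.20, and Cebpb at 3.37 and -0.34. Among p53 targets, Cdkn1a was at 2.81 and 0.62 and Mdm2 at 2.63 and 0.41, and the list median was 1.22 and 0.29. In the other direction, Krt6a stood at -1.68 and 1.77, Sprr1a at 0.02 and 2.50 and Krt17 at 0.77 and 2.13. Globin genes were near whole skin in the second pair, at -0.30 for Hba-a1, where the skin sum was 2.35 to 7.73 CPM against 52.5 to 205 CPM in the first. Rps2-ps10, widest in the first pair, was on the other side at -1.07. Krt10 stood on opposite sides, at 0.73 and -0.82, and the MHC class II gene H2-Aa was less low, at -5.90 and -2.95.

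**Figure D5:**
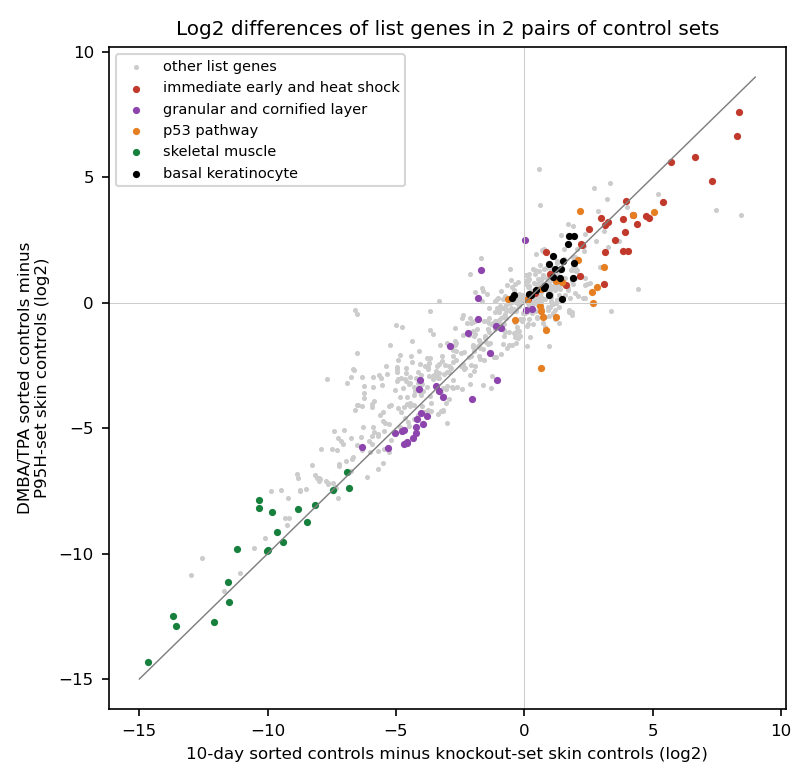
Log2 difference of each list gene in the first pair (horizontal, 10-day sorted against knockout-arm skin) and in the second pair (vertical, DMBA/TPA sorted against P95H-arm skin), 1 point per gene, 5 lists coloured, with the line of equal values. Most muscle, cornified and immediate early genes have the same sign in both pairs, and several p53 genes at 2 or more in the first pair lie near 0 in the second.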

How the data were processed

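Total RNA was sequenced from sorted cells and from whole back skin, 1 mouse per library per the labels. The deposited values are normalised counts per gene (a signal, not raw counts), made by the authors; STAR, featureCounts and DESeq2 are named in the submitters' processing notes, without versions or roles, and the build is likewise not given in the sources used here. In the sorted table every value is a whole multiple of its library's smallest value (tolerance 0.0001), so reads could be recovered. In the whole-skin table undetected genes stand at 1 unit, an adjustment that the sources used here do not state, so fold differences of genes near that unit are uncertain there. Each column was rescaled to CPM of its own sum, without Gm26917, Gm42418, Rn7sk and the mitochondrial genes, and tables were joined on gene identifier. Of 49585 identifiers, 43749 matched GENCODE M21 with their version and 49326 without it.

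Genes with a mean of at least 1 CPM in either group were described, on log2(CPM + 0.5). No count test was run between tables, because each was normalised on its own; descriptions are by value, fold and overlap, so no p-value is given and the number of libraries, 3 a group, limits the precision. Genes named by rule were the 12 highest and 12 lowest set apart with a mean of at least 50 CPM and an established symbol, up to 5 members of each list with the widest difference, every member of lists of up to 12 genes, and 20 marker genes. Other members were named after their values were seen, and a few genes that the rule selects are not reported here. The groups, the 36 lists and the genes were chosen with earlier results of these data known.

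Positions and exon lengths came from GENCODE M21 (GRCm38) and promoter windows from RefSeq (GRCm38.p6). The calls were tried on simulated counts with large known changes. That simulation held no fixed whole-skin floor and no difference of cell content. It therefore does not bear on calls near 4-fold or on the choice of scaling. Tables were handled with numpy 2.4.6 and pandas 2.3.3 in Python 3.11.15, and plots drawn with matplotlib 3.10.9. Alternatives changed the scaling, the pseudocount, the filter, the fold, the treatment of the whole-skin floor and the libraries included.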

Additional observations from a re-analysis of the deposited data

Results flagged for a closer look

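In the 5 whole-skin controls of the P95H arm, which served only in the second pair, 1 library lay far from the other 4 in 5 of the 36 lists checked. Far means a wide gap beside the range of the 5 values, whatever the fold. Chance sets about 1 in 20 such groups aside. The lists share the same libraries, and the melanocyte and Schwann lists share Sox10, so the number of lists flagged was not tested. Replicate 5 was the library in 4 of the flagged lists. Its pigment cell genes summed to 229 CPM beside 128 to 137 CPM in the others, and its globin and erythrocyte genes to 7.73 CPM beside 2.35 to 3.73 CPM. Its Schwann cell genes summed to 241 CPM beside 291 to 310 CPM, and its Merkel cell genes to 18.9 CPM beside 20.98 to 21.7 CPM. In replicate 4 the epithelial adhesion genes summed to 10934 CPM beside 11680 to 11815 CPM.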

How the results depend on the processing

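Of 417 genes set apart as higher and 2757 as lower, the counts were 653 and 2454 under median-ratio scaling, 286 and 1689 with a pseudocount of 2, 335 and 1601 with a filter of 10 CPM, 2117 and 5085 at a fold of 2, and 103 and 1681 at a fold of 8. Scaling to the epithelial genes, chosen after seeing the data, gave 132 and 4466. That scaling moved the median of all genes from -0.28 to -1.18, and median-ratio scaling moved it to 0.02, so lists are to be read relative to these medians; what lies behind the difference was not tested. A pseudocount of 0.1 gave 580 and 3583, and leaving out each replicate in turn gave 382 to 467 higher and 2648 to 2947 lower. With the 10-day skin library alone the counts were 432 and 2831, and with the skin floor subtracted 429 and 2730. Of 201 named genes 156 were set apart, and 123 of these remained so under each of 14 settings. Besides the lists named in the report, the ligand median was 0.63 with the 10 CPM filter and the RNA polymerase III median moved from -0.25 to 0.03 under median-ratio scaling. No paired analysis was possible because the sorted and whole-skin controls are different mice in separately normalised tables and no test was made between them. Depth limits genes near the whole-skin floor, 0.0361 to 0.0373 CPM, and 3 reads in the sorted libraries, 0.0422 CPM on average.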
